A study of Mus musculus with 8 samples.

Results

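Vim, Zeb1, Zeb2, Snai1, Snai2, Twist1, Twist2, Cdh2 and S100a4 are genes read as signs of the epithelial-mesenchymal transition, and their RNA was measured in mammary tumors of mice with and without miR-21, untreated or irradiated. They were taken by name, each as the mean of the probe sets annotated with its symbol alone, and they are 9 of the 23152 genes measured in this way. The tumors came from female MMTV-PyMT mice, a model in which the mouse mammary tumor virus promoter drives the polyomavirus middle T antigen in mammary epithelium, so that all 4 groups carry this transgene. The groups were untreated miR-21+/+;MMTV-PyMT, irradiated miR-21+/+;MMTV-PyMT, untreated miR-21-/-;MMTV-PyMT and irradiated miR-21-/-;MMTV-PyMT tumors, with 2 arrays in each. The deletion of miR-21 was present in every cell of the miR-21-/- mice, host cells of the tumor included. Irradiated tumors received a dose of 8 Gy per the sample labels once they had reached 1000 mm3 and were then left to grow to a total of 2000 mm3, and the methods of the study give a lower dose. A figure legend of the study has irradiated tumors of these mice collected the day after exposure instead, so that an early response and a regrown tumor cannot be told apart in the irradiation differences below. Monitoring ran for 18 weeks or to a humane endpoint, and the sources used here do not give each mouse's age at collection. Nor do they say that the 2 arrays of a group came from separate mice, so that p-values measure only the spread between these samples.

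In the epithelial-mesenchymal transition, epithelial cells give up E-cadherin junctions and apical polarity and take on a motile, matrix-bound form with vimentin filaments. The zinc finger factors Snai1, Snai2, Zeb1 and Zeb2 bind E-box motifs and repress epithelial genes such as Cdh1, and the basic helix-loop-helix factors Twist1 and Twist2 act together with E proteins. Vim (vimentin, an intermediate filament protein), Cdh2 (N-cadherin) and S100a4 (a calcium-binding protein also called fibroblast-specific protein) are products used as mesenchymal markers. In whole tumor tissue all of these genes are also expressed by cells that were never epithelial, such as fibroblasts, endothelial cells and macrophages, and Snai2 is also expressed by basal mammary epithelial cells.

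The sequences below show the deleted miRNA and the miRNAs known to restrain the Zeb factors, since the genes of all of them but miR-429 were analysed on the same arrays. They are mature mouse sequences from RefSeq (GRCm38.p6), written 5′ to 3′, with the seed (bases 2 to 8) in capitals. miR-21a-5p, at chr11:86584120-86584141 on the minus strand, shares its seed with none of the others.
miR-21a-5p: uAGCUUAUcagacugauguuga
miR-200a-3p and miR-141-3p have one seed in common, and their mature sequences are otherwise close.
miR-200a-3p: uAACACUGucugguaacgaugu
miR-141-3p: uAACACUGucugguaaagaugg
miR-200b-3p, miR-200c-3p and miR-429-3p form the other seed group of the miR-200 family, which differs from the first group inside the seed.
miR-200b-3p: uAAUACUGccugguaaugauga
miR-200c-3p: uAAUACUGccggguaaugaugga
miR-429-3p: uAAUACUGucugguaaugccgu
miR-205-5p, which is known to target Zeb1 and Zeb2 as well, has a seed of its own.
miR-205-5p: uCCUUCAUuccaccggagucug

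The upstream sequences of 6 of the 9 genes (Vim, Zeb2, Snai1, Twist1, Twist2 and S100a4, in 9 windows of 250 bases before a transcription start, RefSeq, GRCm38.p6) were searched for CAGGTG and its reverse complement CACCTG, the E-box that Snail and Zeb factors are known to bind. Of 32851 such windows in the mouse table, 17.2% held the motif. Among the 9 windows only the one of Snai1 did, once, beginning 126 bases before the start. The windows of Snai1, the member that was lower in the miR-21-/- tumors array for array, and of Vim, the marker whose direction turned with the array left out, are shown with the motif in capitals. The match is a description of these letters and says nothing of binding.
Snai1, chr2:167537945-167538194, plus strand: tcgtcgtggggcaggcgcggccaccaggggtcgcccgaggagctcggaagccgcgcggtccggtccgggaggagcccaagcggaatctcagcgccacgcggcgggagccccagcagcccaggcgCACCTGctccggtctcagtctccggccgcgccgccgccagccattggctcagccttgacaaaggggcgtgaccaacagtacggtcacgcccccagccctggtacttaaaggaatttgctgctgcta
Vim, chr2:13574061-13574310, plus strand: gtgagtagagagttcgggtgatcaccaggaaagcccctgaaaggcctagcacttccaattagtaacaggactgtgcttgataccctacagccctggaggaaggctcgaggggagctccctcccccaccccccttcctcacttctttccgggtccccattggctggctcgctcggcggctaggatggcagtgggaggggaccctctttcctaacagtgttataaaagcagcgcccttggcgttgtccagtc

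The arrays are Affymetrix Mouse Gene 2.0-ST arrays, and all values below are log2 signals. Median gene levels of the arrays lay between 5.08 and 5.16. Irradiated miR-21-/- replicate 1 stood apart: its correlations across genes with the other 7 arrays were 0.898 to 0.915, against 0.955 to 0.987 between the other 21 pairs. A probe set annotated to both Mir21 and the overlapping gene Vmp1 read 2.338 to 3.084 on the 4 miR-21+/+ arrays and 1.687 to 2.022 on the 4 miR-21-/- arrays, so the 2 genotypes did not overlap there. It is dim, and Vmp1 itself was also lower (6.80 to 7.38 against 6.20 to 6.55), so that it cannot check the deletion by itself. The luminal epithelial markers lay between percentiles 74.8 and 99.4 of all genes by level, in tissue labelled as mammary tumor. In whole tumors, fewer cells of a type and less RNA per cell cannot be told apart.

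Snai2 was the member that stood out in both irradiated miR-21-/- tumors. Vim, Zeb1 and Zeb2 had their highest values in one of these tumors, the array that stood apart, and Vim was low in the untreated miR-21-/- tumors. Zeb1, Snai1, Twist1, Twist2, Cdh2 and S100a4 passed neither threshold in any of the 7 comparisons fitted on all 8 arrays. Calls were made in limma, fitted on all 8 arrays, at either of 2 thresholds. The fold threshold, as in the methods of the study, asked that the groups differ at least 2-fold at an unadjusted p under 0.05, and the adjusted threshold asked for p under 0.05 after Benjamini-Hochberg adjustment over the 23152 genes. In the irradiated tumors, 2 of the 9 genes passed the fold threshold upward where miR-21 was absent, Zeb2 and Snai2, against 1.33% of all genes. In the untreated tumors 0 of 9 passed it, against 3.11% of all genes in either direction. Irradiation in the miR-21+/+ tumors also gave 0 of 9, against 2.1% of all genes. Irradiation in the miR-21-/- tumors gave 3 of 9, Vim, Zeb2 and Snai2, all higher, against 1.7% of all genes that were higher. At the adjusted threshold limma called 0 of 9 in each of these comparisons, where 0.406%, 0.423%, 0.212% and 0.013% of all genes were called, and at an unadjusted p under 0.05 it gave 3, 1, 0 and 4 of the 9, against 13.8%, 13.2%, 8.88% and 11% of all genes. Over both treatments the genotypes gave 0 of 9 at the fold threshold (1.96% of all genes) and 0 of 9 at the adjusted one (2.34% of all genes), with 3 of the 9 at an unadjusted p under 0.05 (17.4% of all genes). Over both genotypes irradiation gave 1 of 9, Snai2, at the fold threshold upward (0.587% of all genes) and at the adjusted one (0.307% of all genes in either direction). The difference of the radiation differences gave 1 of 9, Snai2 again, upward at the fold threshold (1.66% of all genes) and 0 of 9 at the adjusted one (0.00432% of all genes), with 2 of 9 at an unadjusted p under 0.05 (8.03% of all genes). The 9 genes were chosen with results of these data known, and their counts are descriptions.

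**Figure D1:**
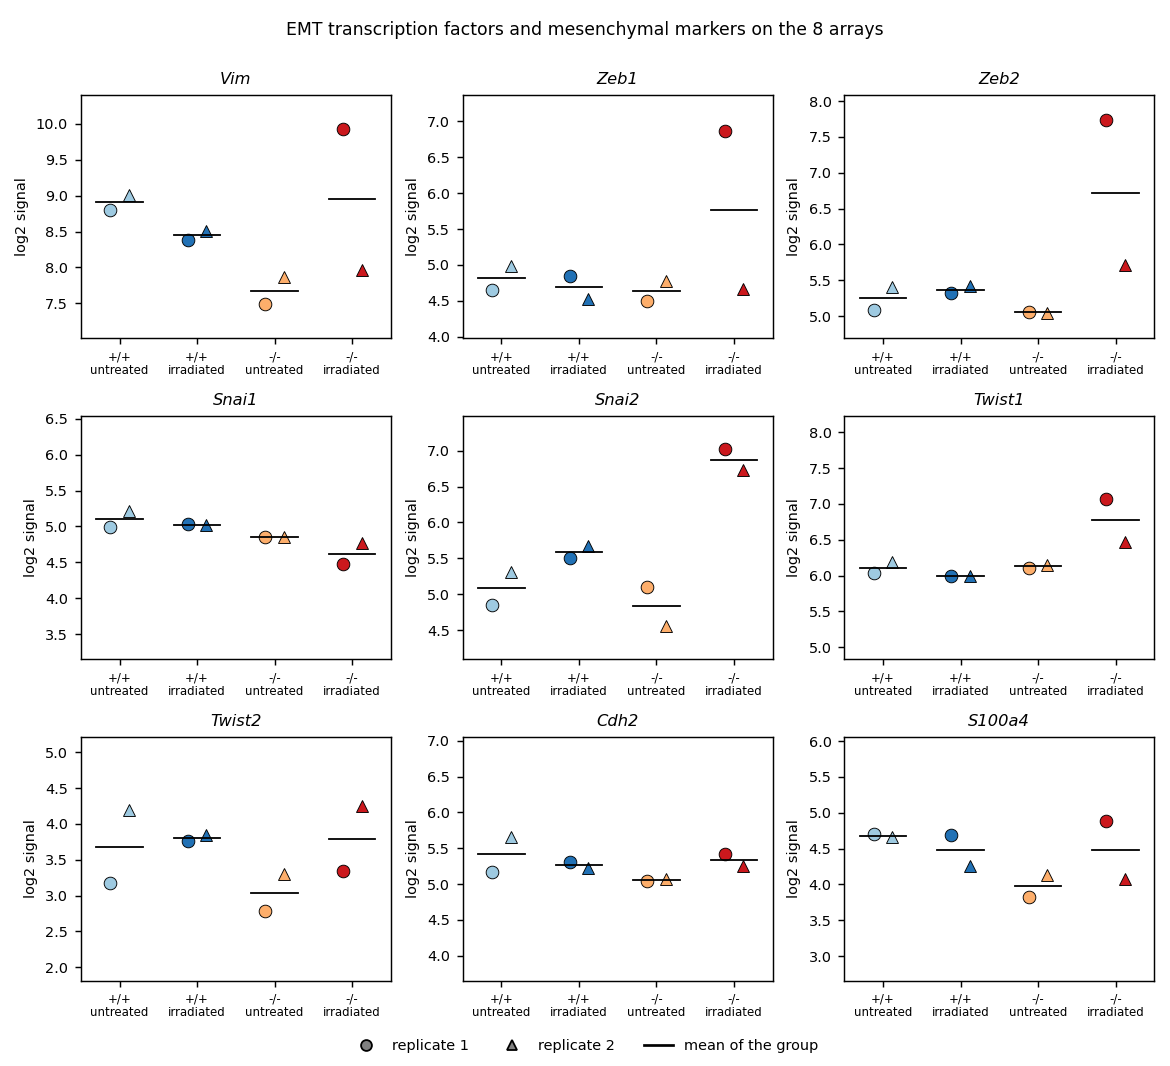
Log2 signal of each of the 9 genes on the 8 arrays, by genotype (miR-21+/+ or miR-21-/-) and treatment; circles are replicate 1, triangles replicate 2, and lines the group means (n = 2), with every panel spanning the same range. Snai2 is at 7.02 and 6.73 on the irradiated miR-21-/- arrays and at 5.67 or lower on the other 6, while Zeb1, Zeb2 and Vim have their highest values on replicate 1 and far lower ones on replicate 2.

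Among the repressors of the Snail family, Snai2 (Slug) had levels of 4.85 and 5.31 in untreated miR-21+/+ tumors, 5.50 and 5.67 in irradiated miR-21+/+ tumors, 5.10 and 4.56 in untreated miR-21-/- tumors and 7.02 and 6.73 in irradiated miR-21-/- tumors. Both irradiated groups lay above both untreated groups, and the irradiated miR-21-/- arrays lay above all others. In the miR-21+/+ tumors the difference with irradiation was 0.02 when the median of the probe sets replaced their mean. The 5 single probe sets differed there by -0.3 to 1.46, 4 of them upward. Over both genotypes Snai2 was higher after irradiation by a mean of 1.28 (standard error 0.18, 95% interval 0.86 to 1.69, a fold of 2.42, adjusted p = 0.0428). This was the only call of the 9 genes at the adjusted threshold, which 0.134% of all genes passed upward in that comparison. Within the genotypes the difference was 2.05 in miR-21-/- tumors (standard error 0.25, adjusted p = 0.0665) and 0.50 in miR-21+/+ tumors (standard error 0.25, adjusted p = 0.642). The difference between these 2 values was 1.55 (standard error 0.36, unadjusted p = 0.00285, adjusted p = 0.309), which passed the fold threshold. Between the irradiated tumors Snai2 was higher by 1.30 in the absence of miR-21 (standard error 0.25, adjusted p = 0.0892), and between the untreated tumors it differed by -0.25 (standard error 0.25).

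Snai2 did not rest on the array that stood apart. Without irradiated miR-21-/- replicate 1, the mean difference with irradiation was 1.20 (adjusted p = 0.0186), that within miR-21-/- tumors was 1.90 (adjusted p = 0.0442), and that between the irradiated tumors was 1.15 (adjusted p = 0.102). It also showed in every one of the 5 Snai2 probe sets, which were above the mean of the 6 arrays of the other groups by 0.72 to 2.46 on replicate 1 and by 0.66 to 2.14 on replicate 2. The adjusted call was lost without any single miR-21+/+ array (adjusted p of 0.0884 to 0.213) or either untreated miR-21-/- array (0.174 and 0.265), and with the median of the probe sets in place of their mean (difference 0.99, adjusted p = 0.3). As a list, macrophage markers (9 genes) were also higher on both irradiated miR-21-/- arrays. Their mean, relative to each gene's mean over the 8 arrays, was 0.77 and 0.67 there and -0.47 to 0.20 on the other 6. Summed signals (log2) were 10.97 and 10.90 against 9.59 to 10.32. Between the irradiated tumors the single markers differed by -0.01 to 1.29, 8 of the 9 upward. On replicate 1, 3 of the 9 had their highest value and 1 had its lowest. Basal epithelial markers (6 genes) were at -0.04 and 0.89 on the irradiated miR-21-/- arrays and at -0.47 to 0.40 on the rest. Their summed signals were 9.33 and 9.80 against 8.38 to 9.33. Between the irradiated tumors the single basal markers differed by -0.29 to 0.73, 4 of the 6 upward and 2 downward, with no call at either threshold. The part of these cells in the level of Snai2 was not tested.

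Snai1 (Snail), the other repressor of the family, had lower values in the absence of miR-21, by little. It read 4.99 and 5.22 in untreated miR-21+/+ tumors, 5.03 and 5.02 in irradiated miR-21+/+ tumors, 4.85 and 4.85 in untreated miR-21-/- tumors, and 4.47 and 4.77 in irradiated miR-21-/- tumors. The genotypes did not overlap over the 8 arrays, the miR-21-/- ones being lower, as with 6.14% of all genes. The mean difference between the genotypes was -0.33 (standard error 0.13, unadjusted p = 0.0347, adjusted p = 0.243), which passed neither threshold. Of its 3 probe sets, all 3 were lower, with differences of -0.63 to -0.11.

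The Zeb factors, which repress Cdh1 and are themselves held down by the miR-200 family, were high on 1 array. Zeb1 read 4.65 and 4.98 in untreated miR-21+/+ tumors, 4.85 and 4.53 in irradiated miR-21+/+ tumors, 4.49 and 4.78 in untreated miR-21-/- tumors, and 6.86 and 4.67 in irradiated miR-21-/- tumors. Replicate 1 of the last group stood 1.88 above the highest of the other 7 arrays, and replicate 2 lay among them. The difference between irradiated miR-21-/- and miR-21+/+ tumors was 1.08 (standard error 0.60, adjusted p = 0.466), and -0.02 without replicate 1. Zeb2 read 5.09 and 5.41, then 5.32 and 5.42, then 5.06 and 5.05, and finally 7.73 and 5.71 in the same order of groups. Both irradiated miR-21-/- arrays lay above the other 6, replicate 2 only narrowly. Its difference between the irradiated tumors was 1.35 (standard error 0.55, unadjusted p = 0.0414, adjusted p = 0.343), and 0.34 (adjusted p = 0.516) without replicate 1. The call at the fold threshold ended there and without any array of the other 3 groups (unadjusted p of 0.0628 to 0.126). With irradiation in miR-21-/- tumors Zeb2 differed by 1.67 (adjusted p = 0.374), and by 0.65 (adjusted p = 0.329) without replicate 1, and this call ended also without either untreated miR-21-/- array (unadjusted p of 0.0643 and 0.066).

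The 2 probe sets that Zeb2 shares with the predicted gene Gm13476 were left out of its mean. Their mean was 3.681 to 4.226 on the miR-21+/+ arrays, 4.524 and 4.783 on the untreated and 5.141 and 6.093 on the irradiated miR-21-/- arrays, so that they followed the same order on the irradiated arrays. In the untreated tumors they went the other way from the mean of Zeb2, with miR-21-/- above miR-21+/+ (3.681 and 3.894). Of the 20 probe sets used, 19 were above the mean of the 6 other-group arrays on irradiated miR-21-/- replicate 1 and 14 on replicate 2. For Zeb1 these counts were 14 and 10 of 15.

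Vim, the vimentin gene, had the largest difference of the 9 genes between the untreated tumors. It read 8.80 and 9.01 in untreated miR-21+/+ tumors, 8.38 and 8.51 in irradiated miR-21+/+ tumors, 7.49 and 7.86 in untreated miR-21-/- tumors, and 9.93 and 7.97 in irradiated miR-21-/- tumors. Of the 4 miR-21-/- arrays, 3 lay below every miR-21+/+ array, and the remaining one, irradiated replicate 1, lay above all of them. In the untreated tumors Vim differed by -1.23 in the absence of miR-21 (standard error 0.54, 95% interval -2.49 to 0.03, unadjusted p = 0.054, adjusted p = 0.39). The standard error is set by the spread over all 4 groups, to which the irradiated miR-21-/- pair contributes most (SD 1.39, against 0.09 to 0.26 in the others, n = 2 each). When limma was fitted on the 4 untreated arrays alone, the same difference had an adjusted p of 0.0136, and without either irradiated miR-21-/- array it had an adjusted p of 0.00986. Of the 14 Vim probe sets, 12 were lower in the untreated miR-21-/- tumors.

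With irradiation in miR-21-/- tumors Vim differed by 1.27 (standard error 0.54, unadjusted p = 0.048, adjusted p = 0.45), a call at the fold threshold. It ended without replicate 1, where the difference was 0.29 (adjusted p = 0.737), and without any array of the other 3 groups (unadjusted p of 0.0721 to 0.179), while without replicate 2 the difference was 2.26 (adjusted p = 0.000319). Between the irradiated tumors it differed by 0.50 (adjusted p = 0.714), by -0.48 without replicate 1 and by 1.49 without replicate 2, so that the direction turned with the array left out. Over both treatments Vim differed by -0.36 between the genotypes (adjusted p = 0.672), by -0.85 without replicate 1 (adjusted p = 0.0132) and by 0.13 without replicate 2 (adjusted p = 0.628), so that this direction turned too. On replicate 1, 13 of the 14 probe sets were above the mean of the 6 other-group arrays, and on replicate 2 none of them was.

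**Figure D2:**
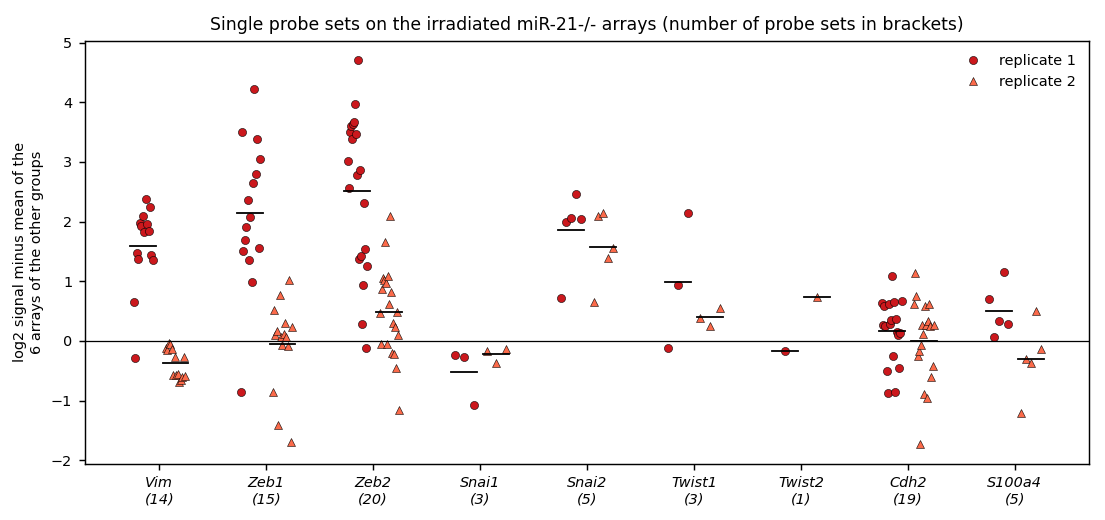
Log2 signal of each single probe set of the 9 genes on the 2 irradiated miR-21-/- arrays, minus its mean over the 6 arrays of the other 3 groups; circles are replicate 1, triangles replicate 2, and short lines the means. The 5 Snai2 probe sets are above 0 on both arrays, and the 14 Vim probe sets are below 0 on replicate 2 while 13 of them are above 0 on replicate 1.

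Of the Twist factors, Twist1 read 6.03 and 6.19 in untreated miR-21+/+ tumors, 5.99 and 5.99 in irradiated miR-21+/+ tumors, 6.11 and 6.15 in untreated miR-21-/- tumors, and 7.07 and 6.47 in irradiated miR-21-/- tumors. The irradiated miR-21-/- arrays were the 2 highest. The difference between the irradiated tumors was 0.78 (standard error 0.22, unadjusted p = 0.00825, adjusted p = 0.195), under the fold of 2 that the fold threshold asks for, and 0.48 (adjusted p = 0.291) without replicate 1. Its 3 probe sets did not move alike: on replicate 1 they stood between -0.12 and 2.15 from the mean of the other groups. Twist2 has 1 probe set and is dim, at percentile 18.9 of the gene levels. Its arrays ranged from 2.78 to 4.25, with no group clear of the others over the 8 arrays, and its standard error of 0.41 for a difference between 2 groups leaves a 95% interval of -0.95 to 0.93 around the difference of -0.01 between the irradiated tumors.

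The remaining markers, Cdh2 and S100a4, passed neither threshold in any comparison on all 8 arrays. Cdh2, the cadherin that mesenchymal cells are known to use in place of Cdh1, ranged from 5.05 to 5.66 over the 8 arrays. Its difference between the irradiated tumors was 0.07, with a 95% interval of -0.41 to 0.54, and its 19 probe sets were split, 11 higher and 8 lower. S100a4 read 4.70 and 4.66 in untreated miR-21+/+ tumors, 4.69 and 4.26 in irradiated miR-21+/+ tumors, 3.83 and 4.13 in untreated miR-21-/- tumors, and 4.89 and 4.08 in irradiated miR-21-/- tumors. Its untreated miR-21-/- arrays lay below both untreated miR-21+/+ arrays, by a mean log2 difference of -0.70 (standard error 0.29, unadjusted p = 0.0445, adjusted p = 0.364). All 5 probe sets were lower, with unequal differences of -1.52 to -0.17. As with Vim, 3 of the 4 miR-21-/- arrays were below all 4 miR-21+/+ arrays, and irradiated replicate 1 was above them. In the untreated tumors 5 of the 9 genes (Vim, Snai1, Cdh2, S100a4 and Zeb2) were lower on both miR-21-/- arrays than on both miR-21+/+ arrays and none was higher, against 24.4% and 27.7% of all genes. Zeb2 was among them narrowly, at 5.06 and 5.05 against 5.09 and 5.41, with 13 of its 20 probe sets lower and 7 higher.

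**Figure D3:**
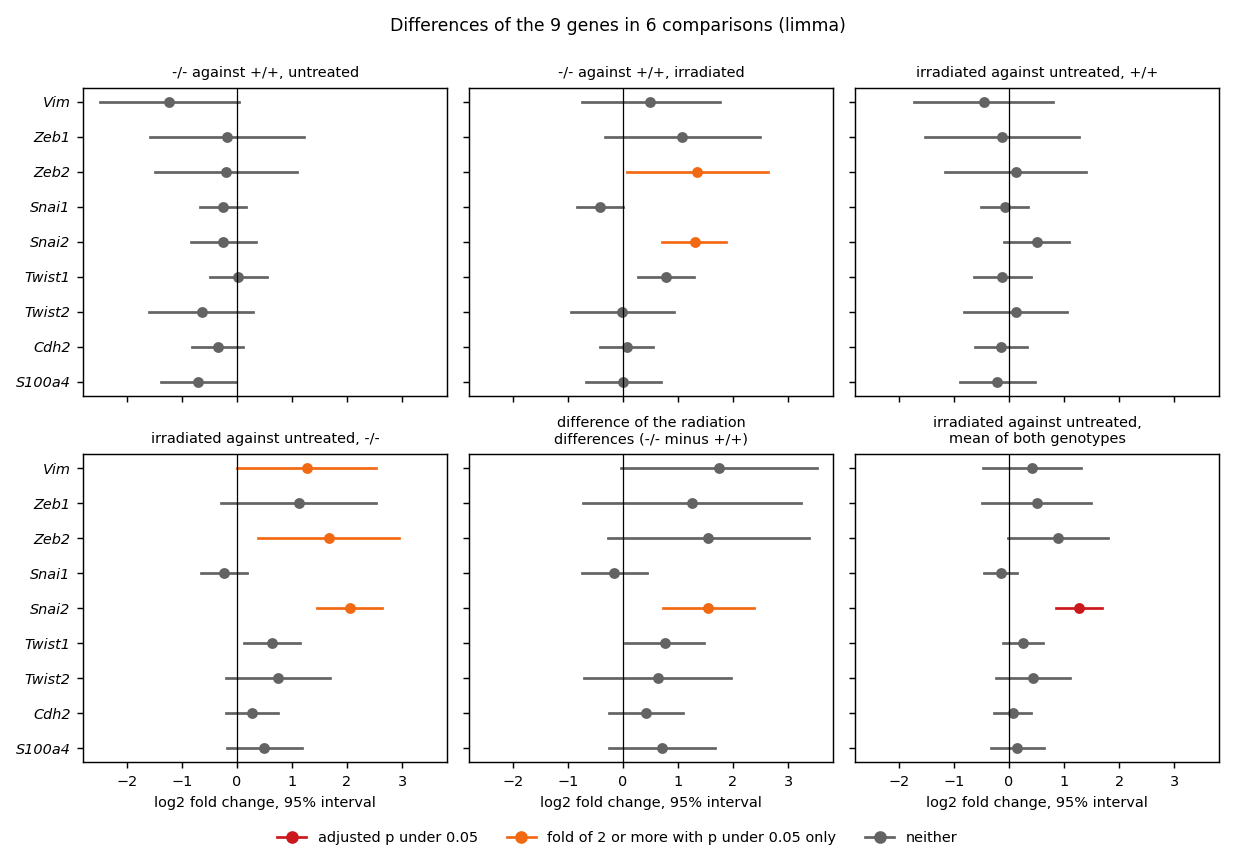
Log2 fold changes of the 9 genes with 95% intervals from limma on all 8 arrays, in 6 comparisons; colors mark the calls. Snai2 in irradiated against untreated tumors over both genotypes (1.28) passes the adjusted threshold, and the intervals of Vim, Zeb1 and Zeb2 are wider than those of Snai1 and Snai2.

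One array carried much of what the 9 genes showed after irradiation. Of the 9 genes, 6 had their highest value on irradiated miR-21-/- replicate 1, as did 20.4% of all genes, and Snai1 had its lowest there, as did 24.8% of all genes. The median difference of the 9 genes between the irradiated tumors was 0.50, beside -0.003 for all genes, and it was -0.02 without replicate 1 and 1.08 without replicate 2. Without replicate 1, Snai2 alone passed the fold threshold in that comparison. Without replicate 2, 5 of the 9 passed both thresholds: Vim (1.49), Zeb1 (2.17), Zeb2 (2.37), Snai2 (1.44) and Twist1 (1.08). Calls were more frequent everywhere in that fit, where 6.21% of all genes were higher at the fold threshold and 16% passed the adjusted one, against 1.21% and 1.37% without replicate 1. With irradiation in miR-21-/- tumors, 6 of the 9 genes (Vim, Zeb2, Snai2, Twist1, Twist2 and Cdh2) were higher on both irradiated arrays than on both untreated ones, as were 16.4% of all genes, and Snai1 was lower on both, as were 23.8%. In each fit without an array the group is left with 1 array, whose spread is assumed to be that of the other groups.

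**Figure D4:**
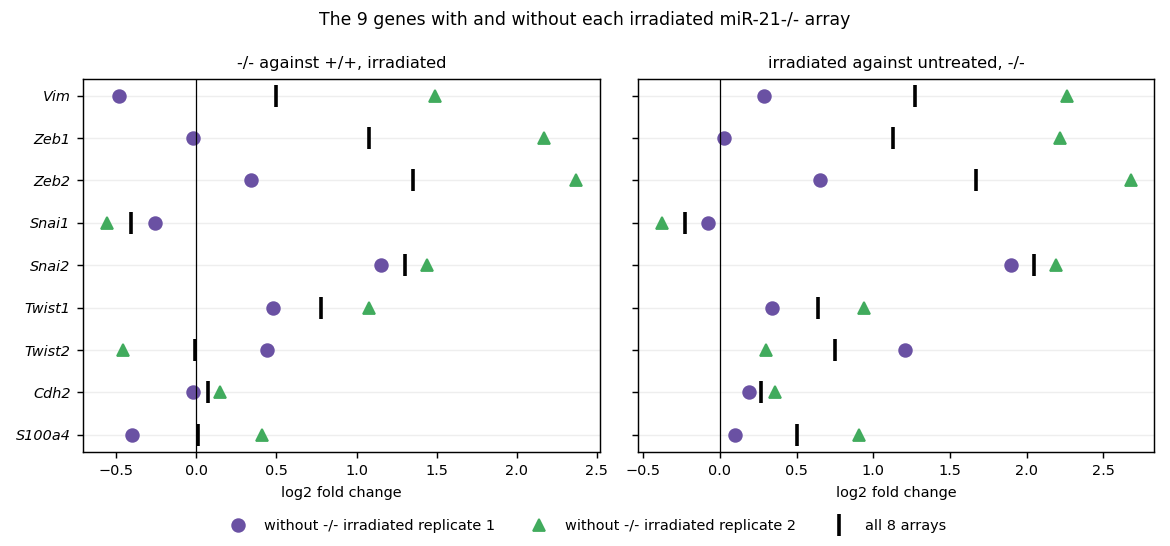
Log2 fold changes of the 9 genes in the 2 comparisons that hold the irradiated miR-21-/- tumors, with all 8 arrays (bars), without replicate 1 (circles) and without replicate 2 (triangles) of that group. Vim goes from 1.49 to -0.48 between the irradiated tumors depending on the array left out, and Snai2 from 1.44 to 1.15.

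Markers of other cells moved with the same array. The adipocyte markers stood out: all 8 were highest on irradiated miR-21-/- replicate 1, with their mean at 4.98 above each gene's average, against -0.98 to -0.11 on the other 7 arrays. Their summed signal was 14.03 there, 7.98 on replicate 2, 7.76 and 7.77 in the untreated miR-21-/- tumors and 7.66 to 8.93 in the miR-21+/+ tumors (log2). Cidec, a lipid droplet protein, read 11.04 against 3.44 to 4.40 on the rest, and Adipoq (adiponectin) read 9.14 against 3.11 to 4.33. Of 14 fibroblast markers 13 were highest on this array (mean 1.66, against -0.52 to 0.18; summed signal 13.16, against 10.59 to 11.40), and all 8 endothelial markers were (1.36, against -0.55 to 0.41; summed signal 10.26, against 8.10 to 9.27), as were 7 of 8 pericyte and smooth muscle markers (0.82, against -0.30 to 0.11). All 8 luminal epithelial markers together were at -1.10 there, against -0.07 to 0.58. Markers of T and NK cells, skeletal muscle and Schwann cells (2 genes) were at -0.08, -0.27 and -0.61 on it. On replicate 2 the adipocyte, fibroblast and endothelial lists were at -0.69, 0.06 and -0.55, the last of these the lowest of the 8 arrays and the others inside the range of the other groups. The part of adipocytes, fibroblasts and vessels in the levels of Vim, Zeb1, Zeb2 and Twist1 on replicate 1 was not tested.

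**Figure D5:**
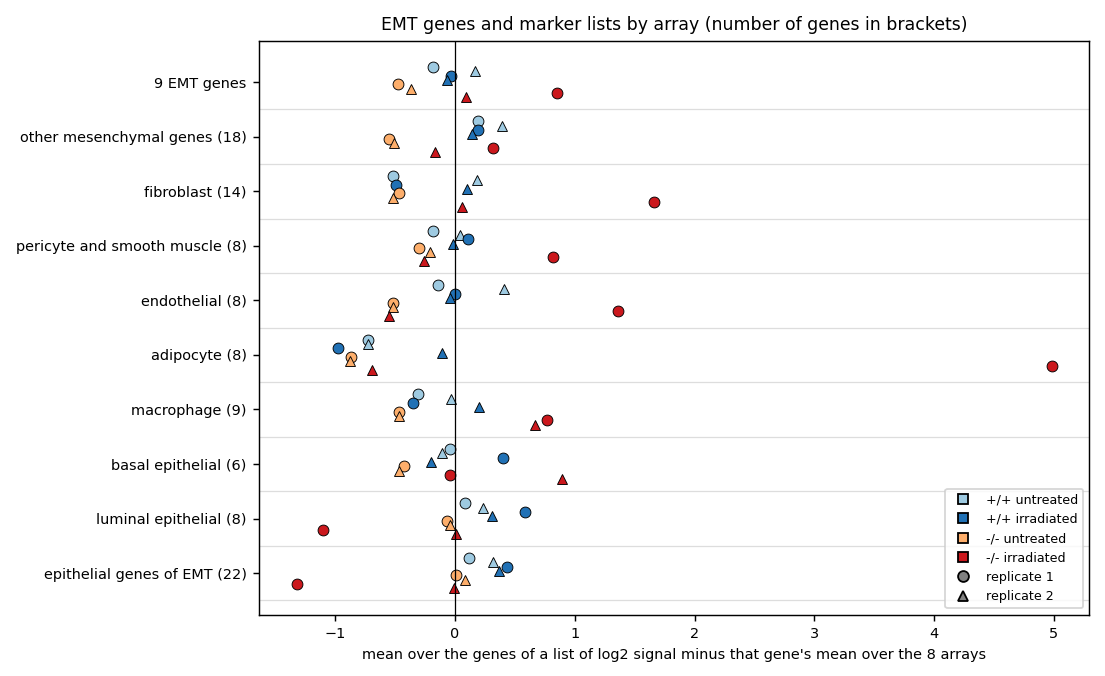
Mean of the 9 genes and of lists of marker genes on each array, each gene centred on its own mean over the 8 arrays (log2); color gives the group, circles replicate 1 and triangles replicate 2. On irradiated miR-21-/- replicate 1 the 9 genes are at 0.85, the adipocyte markers at 4.98 and the epithelial genes at -1.32.

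The epithelial genes that EMT factors are known to repress were all lower in irradiated miR-21-/- than in irradiated miR-21+/+ tumors, 22 of 22 by sign, with a median of -1.14 beside -0.003 over all genes. At the fold threshold 11 of the 22 were lower, against 2.63% of all genes, and at the adjusted threshold none was. The keratin Krt8 differed by -1.44 (adjusted p = 0.0989), Krt18 by -1.46 (adjusted p = 0.11), and the tight junction genes Cldn4 and Cldn3 by -1.40 (adjusted p = 0.102) and -1.68 (adjusted p = 0.156). Cdh1 (E-cadherin, the classical target of these repressors) read 9.63 and 9.98 in untreated miR-21+/+ tumors, 10.13 and 9.80 in irradiated miR-21+/+ tumors, 9.74 and 9.64 in untreated miR-21-/- tumors, and 7.97 and 9.36 in irradiated miR-21-/- tumors. It was lowest on both irradiated miR-21-/- arrays (difference -1.29, standard error 0.41, adjusted p = 0.24). Epcam, an epithelial adhesion molecule, was at 8.16 on replicate 1 and 9.66 on replicate 2, against 9.61 to 9.86 on the others. The splicing regulator Esrp1 and the epithelial transcription factors Grhl2 and Ovol2 differed by -0.99, -0.64 and -0.37, and none of them passed a threshold. Without replicate 1, 3 of the 22 genes were lower at the fold threshold and the median was -0.36, against 2.07% of all genes in that fit. Without replicate 2, 19 were and the median was -1.85, against 5.63% of all genes. Cdh1 differed by -0.60 and Cldn3 by -0.94 without replicate 1, while Krt8 and Krt18 differed by -1.02 and -1.04.

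Over both treatments 1 of the 22 epithelial genes passed the adjusted threshold, against 2.34% of all genes in either direction. This was Cldn4, lower in the absence of miR-21 (log2 difference -1.13, standard error 0.20, adjusted p = 0.0384). Its miR-21-/- arrays were at 7.38 to 7.79 and its miR-21+/+ arrays at 8.04 to 9.06, so that the genotypes did not overlap. The value without irradiated miR-21-/- replicate 1 was -1.02 (adjusted p = 0.0228), and the adjusted call was lost without any array of the other 3 groups, at adjusted p of 0.0542 to 0.179. In untreated tumors 1 of the 22 epithelial genes passed the fold threshold, Krt19 (-1.57, adjusted p = 0.129), where 2.16% of all genes were lower. Krt19 was also the one that was higher at that threshold with irradiation in miR-21-/- tumors (1.54, adjusted p = 0.256), against 1.7% of all genes. Rab25 (-1.63), Cdh1 (-1.02) and Cldn3 (-1.04) were lower in that comparison, against 1.33% of all genes. Without replicate 1 Rab25, Cdh1 and Cldn3 differed by -1.02, -0.33 and -0.30. The difference between the genotypes in their radiation difference passed the fold threshold for Krt19 (1.51), Rab25 (-1.51), Krt8 (-1.21) and Cldn3 (-1.56), all at adjusted p of 0.525 or more. In that comparison 1.66% of all genes were called higher and 2.25% lower.

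Other mesenchymal genes, matrix and adhesion products for the most part, were lower in part in the untreated miR-21-/- tumors, as Vim was by sign. Of 18 measured, 15 were lower in untreated miR-21-/- tumors by sign, with a median of -0.87 beside 0.028 over all genes, and 6 passed the fold threshold downward, against 2.16% of all genes. They include the membrane protease Mmp14 (-1.50, adjusted p = 0.059), fibronectin Fn1 (-2.18, adjusted p = 0.116), the proteoglycan Vcan (-1.88, adjusted p = 0.133) and the integrin Itga5 (-1.01, adjusted p = 0.226). Markers of vessels and fibroblasts were low in the same tumors by sign, the endothelial markers in 8 of 8 (median -0.66) and the fibroblast markers in 13 of 14 (median -0.44), none of them at either threshold. Their part in these differences and in that of Vim was not tested. Fn1 read 9.43 and 9.88 in untreated and 8.76 and 8.74 in irradiated miR-21+/+ tumors, and 7.41 and 7.54 in untreated and 10.25 and 8.53 in irradiated miR-21-/- tumors. As with Vim, its irradiated miR-21-/- pair was split, with replicate 1 the highest of all arrays. With irradiation in miR-21-/- tumors 4 of the 18 were higher at the fold threshold, namely Fn1 (1.92), Vcan (1.61), the receptor kinase Axl (1.38) and the matricellular protein Sparc (1.11), against 1.7% of all genes, and the median was 0.61. Without replicate 1 Vcan differed by 2.37, Fn1 by 1.06, Axl by 0.67 and Sparc by 0.46, so that the last pair fell short of the fold threshold. Between the irradiated tumors the list was even, 9 higher and 9 lower by sign, with the secreted protein Tgfbi (1.01) and Axl (1.18) higher and the membrane linker Msn (-1.47) and the matrix protein Tnc (-2.21) lower at the fold threshold. Without replicate 1 these differences were 0.67, 0.48, -1.67 and -1.06. On all 8 arrays 1.33% of all genes were higher and 2.63% lower at that threshold. The radiation differences of the genotypes differed at the fold threshold in Fn1 (2.82, adjusted p = 0.34), Tgfbi (1.38), Mmp14 (1.03) and Itga5 (1.16), against 1.66% of all genes. Without replicate 1 these genes differed by 1.96, 1.04, 1.19 and 0.64. Over both treatments, against 1.47% of all genes, Msn (-1.34, adjusted p = 0.0573), Tnc (-1.91, adjusted p = 0.0831) and Vcan (-1.34, adjusted p = 0.084) were lower at the fold threshold in the absence of miR-21. Vcan was higher with irradiation over both genotypes (1.08, adjusted p = 0.261), against 0.587% of all genes. Over both treatments Mmp14 was lower in the absence of miR-21 (-0.99, standard error 0.18, adjusted p = 0.0365; -0.91 and adjusted p = 0.022 without replicate 1), and that call was lost without any array of the other 3 groups, at adjusted p of 0.0615 to 0.186.

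The upstream signals were measured as well. TGF-beta, which is known to induce Snai1, Snai2 and Zeb factors through Smads, is covered by 10 genes, of which 1 was higher and 1 lower between the irradiated tumors at the fold threshold, against 1.33% and 2.63% of all genes. The ligand Tgfb2 read 6.69 and 6.73 in untreated and 7.53 and 8.11 in irradiated miR-21+/+ tumors, and 7.79 and 7.89 in untreated and 6.30 and 7.30 in irradiated miR-21-/- tumors. It was thus higher with irradiation where miR-21 was present (1.11, adjusted p = 0.355) and lower where it was absent (-1.04, adjusted p = 0.363), each at the fold threshold. The difference between these values was -2.15 (standard error 0.47, unadjusted p = 0.00217, adjusted p = 0.272). Without replicate 1 the difference in miR-21-/- tumors was -0.54 (adjusted p = 0.524), under the fold threshold, and the difference between the genotypes was -1.65 (adjusted p = 0.0903). Between the irradiated tumors Tgfb2 was the gene that was lower (-1.02, adjusted p = 0.251), with replicate 1 at 6.30 and replicate 2 at 7.30. The co-receptor Tgfbr3 was higher in the absence of miR-21 in the irradiated tumors (1.53, adjusted p = 0.154) and over both treatments (1.04, adjusted p = 0.105), but by 0.90 and 0.73 without replicate 1. In the untreated tumors 2 of the 10 were higher at the fold threshold, Tgfb2 (1.13, adjusted p = 0.204) and Tgfb3 (1.15, adjusted p = 0.361), against 0.955% of all genes. Among 12 measured partner transcription factors 1 passed the fold threshold between the irradiated tumors, Sox9 (-1.67, adjusted p = 0.243), and among 15 inhibitors and cofactors 1 did, Id2 (-1.03, adjusted p = 0.352), an inhibitor of basic helix-loop-helix factors, both in the direction in which 2.63% of all genes were called. Without replicate 1 they differed by -0.72 and -0.27. Sox9 was higher with irradiation in miR-21+/+ tumors (1.46, adjusted p = 0.458) and differed by -2.32 in its radiation difference between the genotypes (adjusted p = 0.508), and Id4 was higher with irradiation in miR-21-/- tumors (1.10, adjusted p = 0.264; 0.69 without replicate 1). Without replicate 1 neither list had a call between the irradiated tumors, at either threshold.

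The hairpins of the miRNAs shown above that target Zeb1 and Zeb2 gave no call between the irradiated tumors. Of the 5 measured, limma called 0 at either threshold. At the fold threshold 1.33% of all genes were higher and 2.63% lower, and 0.406% passed the adjusted one. At an unadjusted p under 0.05 limma gave 1 of 5, against 13.8% of all genes. That one was Mir200a, which read 5.32 and 5.16 in irradiated miR-21+/+ and 4.33 and 4.66 in irradiated miR-21-/- tumors (difference -0.74, standard error 0.19, adjusted p = 0.171). Mir200b read 2.77 and 3.73 in untreated and 4.64 and 4.12 in irradiated miR-21+/+ tumors (difference 1.13, standard error 0.34, adjusted p = 0.347), a call at the fold threshold, as 1.16% of all genes were called upward. In the miR-21-/- tumors it read 3.57 and 3.66 without and 4.11 and 4.52 with irradiation. Mir200c, Mir141 and Mir205 differed by -0.06, -0.24 and 0.20 between the irradiated tumors. These probe sets read hairpin or primary RNA, not the mature miRNAs, and they are dim, at percentiles 2.2 to 44.1 of all genes by level.

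Relatives of the marker genes were measured too. Among 12 S100 genes S100b was the one with calls between the genotypes, at the fold threshold. It was higher in untreated miR-21-/- tumors (1.32, adjusted p = 0.112), as were 0.955% of all genes. In irradiated miR-21-/- tumors it was lower (-1.70, adjusted p = 0.0617), as were 2.63%. With irradiation 2 of the 12 were higher at that threshold in miR-21+/+ tumors, against 1.16% of all genes. In miR-21-/- tumors 1 was lower with irradiation, against 1.33%. S100b read 3.82 and 4.53, then 5.62 and 6.03 in untreated and irradiated miR-21+/+ tumors, and 5.39 and 5.59, then 4.33 and 3.92 in untreated and irradiated miR-21-/- tumors. The genotypes differed by -3.02 in their radiation difference (standard error 0.40, adjusted p = 0.118). In that comparison 2 of the 12 S100 genes were lower at the fold threshold, against 2.25% of all genes. Among the 6 classical cadherins Cdh3 (P-cadherin) was higher at the fold threshold with irradiation in miR-21-/- tumors (1.30, adjusted p = 0.203), against 1.7% of all genes. Over both genotypes it was higher at that threshold too (1.08, adjusted p = 0.082), against 0.587%.

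Of the other intermediate filament genes of the vimentin class and its neighbours, Des, Gfap, Prph, Nes and Synm, it was Nes (nestin, known to assemble with vimentin) that changed. Nes read 7.75 and 7.63 in untreated and 7.72 and 7.49 in irradiated miR-21+/+ tumors, and 7.48 and 7.39 in untreated and 5.42 and 5.29 in irradiated miR-21-/- tumors. Both irradiated miR-21-/- arrays were low, and the other 6 lay within 7.39 to 7.75. The difference between the irradiated tumors was -2.25 (standard error 0.17, adjusted p = 0.0171), and with irradiation in miR-21-/- tumors it was -2.08 (standard error 0.17, adjusted p = 0.0402). Nes was the 1 adjusted call of the 5 genes in each of these comparisons, where 0.406% and 0.013% of all genes were called. Without irradiated miR-21-/- replicate 1 the first value was -2.32 (adjusted p = 0.00306), and without any array of the other 3 groups it was no longer past the adjusted threshold (adjusted p of 0.0669 to 0.112). Both calls were also lost under the replicate block (adjusted p of 0.0597 and 0.11), in the unmoderated model (0.602 and 0.662) and with limma on the 4 arrays compared (0.356 and 0.495). Nes also passed the adjusted threshold downward between the genotypes over both treatments (-1.25) and with irradiation over both genotypes (-1.08). There 2.34% and 0.307% of all genes were called in either direction. The genotypes differed by -2.0 in its radiation difference, a call at the fold threshold, as 2.25% of all genes were called downward.

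The genes most like each member were sought for the 7 members whose arrays spanned at least 1 on the log2 scale. Each gene was centred on its own mean, and the smallest root mean square difference over the 8 arrays was taken. The other members were left out of this search, as were predicted genes, clones, small RNA genes and olfactory and vomeronasal receptor genes. Nearest to Vim were Emcn (0.155), Ptplb (0.167) and Prkcdbp (0.175), of which Emcn is a marker in the endothelial list. Nearest to Zeb1 were Dennd2a (0.128), Crat (0.148) and Btnl9 (0.149), and nearest to Zeb2 were Odz4 (0.076), Adamtsl1 (0.115) and Nbl1 (0.13), all of them highest on irradiated miR-21-/- replicate 1. Nearest to Twist1 were Crb2 (0.061), Adam22 (0.064) and Klhl4 (0.084). Snai2 had no neighbour as close. The 3 nearest to it were Ptgs1 (0.275), Vcam1 (0.289) and Cpt1c (0.308), and Vcam1 read 7.21 and 6.65 on the irradiated miR-21-/- arrays against 4.61 to 5.98 on the others. Twist2 was nearest to Palm2 (0.235), March3 (0.262) and Rarg (0.268), and S100a4 to Mecom (0.113), Lyst (0.13) and Ppp2r5d (0.135).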

How the data were processed

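Tumor RNA from 8 samples, 2 in each of 4 groups, was hybridized to Affymetrix Mouse Gene 2.0-ST arrays. The authors deposited 1 table of log2 values per probe set, made by RMA in Affymetrix Expression Console 1.4 per the submitters' processing notes, which also name Transcriptome Analysis Console 3.1. The genome build is not given in the sources used here. The number of arrays, rather than a read depth, limits the precision.

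Of 269751 probe sets, 233753 carry 1 gene symbol, 5139 several and 30859 none. Probe sets with 1 symbol were averaged per gene, which gave 23152 genes (median 8 probe sets, 1 only for 2319). Probe sets of 1 gene can lie in exons that tumors use unequally, which a mean hides. Group means were fitted with limma 3.58.1 in R 4.3.3 on all 8 arrays (residual df 4, prior df 3.54), and 7 comparisons were taken, with p-values adjusted over all genes by Benjamini-Hochberg. The code was tested on simulated data. Sequences came from RefSeq, GRCm38.p6. Python 3.11.15, numpy 2.4.6, pandas 2.3.3, scipy 1.17.1 and matplotlib 3.10.9 were used.

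All 9 members are named. Of each pathway list, at most 4 genes past a threshold per comparison are named, in order of p, and a few genes (Cdh1, Epcam, Esrp1, Grhl2, Ovol2 and the miRNA genes) whatever their value. The members and lists were chosen with earlier results of these data known. A few genes of the lists are not reported here. Marker genes were read by list on each array, and the luminal list shares 7 genes with other lists. Alternatives changed the model, the filter on dim genes, the normalization, the summary of probe sets, array weights, the replicate block and the array left out. The replicate numbers were not taken to pair the samples, since correlations of same-numbered deviations between groups were -0.133 to 0.042.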

Additional observations from a re-analysis of the deposited data

Results flagged for a closer look

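Among the 18 groups of 4 arrays tested (2 genotypes for each of the 9 genes), 2 held an array farther from the rest than the 95% critical value of Dixon's test for 4 samples, 0.829. In Zeb1, replicate 1 of the irradiated tumors stood above the other 3 miR-21-/- arrays, with a gap of 0.878 of the range. In S100a4, replicate 2 of the irradiated tumors stood below the other 3 miR-21+/+ arrays, with a gap of 0.912 of the range. Most of that gap came from 1 of its 5 probe sets, at 2.152 there and 4.049 to 4.361 on the other 3. The same 2.152 recurred on untreated replicate 1 and irradiated replicate 2 of miR-21-/-. The other probe sets read 3.688, 5.771, 5.162 and 4.551 on the flagged array, of which only 5.771 was the lowest miR-21+/+ value. Each group mixes untreated and irradiated tumors, and chance alone flags about 1 in 20 such groups.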

How the results depend on the processing

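Of 1079 values of the 9 genes recomputed under the alternatives, 1021 kept their side of the adjusted threshold with no change of sign beyond 1 standard error, 10 lost and 27 gained a call, 21 uncalled differences changed sign by more than that, and 0 turned a called direction. Of the 63 results only 1 was called in the main fit, so for the rest keeping a side meant staying uncalled. That call, Snai2 with irradiation over both genotypes, was lost in 10 of its 17 alternatives, which are all 10 losses. Sizes could move without a change of side: Zeb2 between the irradiated tumors ran from 0.34 to 2.37. With the brightest probe set its difference there was 1.04 (limma, unadjusted p = 0.0632), so that Zeb2 lost its call at the fold threshold. Between the irradiated tumors, the 2 genes called at the fold threshold became 1 (Snai2) in the unmoderated model, with limma on the 4 arrays compared and with a variance trend, and 1 to 5 when single arrays were left out. The 0 calls at the adjusted threshold there became 0 to 5 with single arrays left out. Between the untreated tumors, 0 fold-threshold calls became 1 (Vim) in the unmoderated model, with limma on 4 arrays, quantile normalization, the median of probe sets and array weights, and 0 to 1 with an array left out; at the adjusted threshold limma on 4 arrays gave 1, and leaving out an array 0 to 1. With irradiation in miR-21-/- tumors, 3 became 1 (Snai2) in the unmoderated model, with limma on 4 arrays and with the brightest probe set, and 1 to 4 with an array left out. Vim alone also lost its call there with the variance trend (unadjusted p = 0.0632), genes above the median level (0.0541), median centring (0.0526) and the replicate block (0.0569). The adjusted calls went from 0 to between 0 and 6, the highest without irradiated miR-21-/- replicate 2, where 15.6% of all genes were called against 0.013%. For the difference of radiation differences, 1 became 2 with quantile normalization and with the median of probe sets, 3 with array weights and 1 to 6 with an array left out, where adjusted calls were 0 to 5. Over both treatments the genotype calls were 0 to 1 at the fold and 0 to 3 at the adjusted threshold with an array left out. Over both genotypes, the radiation calls were 1 to 3 at the fold threshold with an array left out, and the adjusted call of Snai2 (1 gene) became 0 in the unmoderated model (adjusted p = 0.277), with the median of probe sets (0.3), the brightest probe set (0.308) and the replicate block (0.102), and 0 to 4 with an array left out. Beside these calls of Vim and Snai2, the replicate block changed no call of the 9 genes. Genes below the median level, Zeb1, Snai1, Twist2 and S100a4 among them, were not tested where that filter was used. The cause of these shifts was not tested.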
